A study of Gallus gallus with 30 samples.

Results

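The genes described here were expressed in the granulosa layer of the smallest follicles, fell under 1 FPKM in the 3 largest preovulatory follicles and were measured again in postovulatory follicles. The members were chosen by FPKM values in SWF, F3, F2, F1 and POF, all of them measured here. A gene was a member if its mean FPKM over the 3 small white follicle libraries was at least 5, its FPKM was under 1 in each of the 9 libraries of F3, F2 and F1, and its mean FPKM over the 3 postovulatory libraries was at least 2. FPKM is the number of sequenced fragments scaled to the length of the transcript and to the mapped fragments of the library. Of the 23910 genes in the table, 155 (0.648%) met this rule. The 32 genes with a symbol in a supplementary table of the study were left out in advance. Whether any of them would have met the rule was not checked.

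The study profiled follicular granulosa cell layers of healthy Luhua hens at 31 weeks of age, the peak of laying. It covered 10 stages with 3 libraries each, 30 libraries in all. The prehierarchical stages were small white (SWF), large white (LWF), small yellow (SYF) and large yellow follicles (LYF), the preovulatory stages were F5, F4, F3, F2 and F1, with F1 the largest, and the last stage was the postovulatory follicle (POF), the tissue left after the egg yolk has gone. No agent or genetic change was involved, and the labels do not say which libraries came from the same hen, so p-values measure the spread between these libraries. For 6 libraries, those of LWF and SYF, titles and descriptions exchange the stage names. Both stages are named here by the description, which is also the column name, and they entered every test together.

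A hen's ovary holds follicles of all sizes at once. From the pool of small follicles, 1 at a time is selected into the ordered hierarchy, where it grows quickly with yolk until it ovulates. The granulosa layer lies next to the yolk-filled oocyte, makes part of its inner coat and, in the hierarchy, becomes the main source of progesterone. After ovulation the granulosa and theca layers remain as the POF, which regresses without forming a corpus luteum.

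Only 1 granulosa gene was looked up. Its level changed with stage, so it does not measure the share of granulosa cells in a library. ZP3, which encodes a protein of the inner egg coat that granulosa cells secrete in the hen, had a mean FPKM of 1101 in SWF and 69342 in F1. In POF replicates 1, 2 and 3 it was at 341, 1182 and 9970 FPKM. The POF libraries were thus unlike each other in this granulosa gene, with replicate 3 highest and replicate 1 lowest. Over all genes that passed the filter (above 0.5 FPKM in 2 or more of a stage's libraries), POF replicates 1 and 2 correlated at a Spearman rho of 0.869, replicates 1 and 3 at 0.759 and replicates 2 and 3 at 0.785, as a description over 15197 genes that share each library. POF replicate 3 is also among the 6 libraries with the higher base quality (Q30) in the study's quality table, and POF replicates 1 and 2 are not. The 3 POF libraries are therefore reported one by one throughout. Markers of theca, blood, vessel, immune and smooth muscle cells could not be looked up, since identifiers outside those 32 genes were paired with no symbol. In such bulk layers, fewer cells of a type and less RNA per cell cannot be told apart.

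The sum of FPKM ran from 471009 in POF replicate 1 to 642207 in LYF replicate 1, and a relative depth read from the most frequent low FPKM ran from 1 in F5 replicate 1 to 1.54 in F4 replicate 3. Genes at 1 FPKM or more numbered 12821, 12294 and 11606 in POF replicates 1, 2 and 3 and 9913 to 10581 in the libraries of F3, F2 and F1. A fixed limit of 1 FPKM was met by fewer genes in these large follicles, and 12138 of the 23910 genes (50.8%) were under it in all 9 libraries.

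The members were first described at the stages the rule used. Their median FPKM was 9.43, 9.88 and 7.25 in SWF replicates 1, 2 and 3. In the 9 libraries of F3, F2 and F1 the median lay between 0.0311 and 0.144 FPKM. It was 16.7, 8.43 and 2.73 FPKM in POF replicates 1, 2 and 3. POF replicates 1 and 3 thus lay on either side of the SWF libraries, and the members' total showed the same order. The members held 0.536%, 0.613% and 0.460% of all FPKM in the SWF libraries. They held at most 0.00745% in a library of F3, F2 or F1. They held 4.26%, 2.70% and 0.321% in POF replicates 1, 2 and 3. POF replicates 1 and 2 were above every SWF library in this share, and replicate 3 was below all of them.

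**Figure D1:**
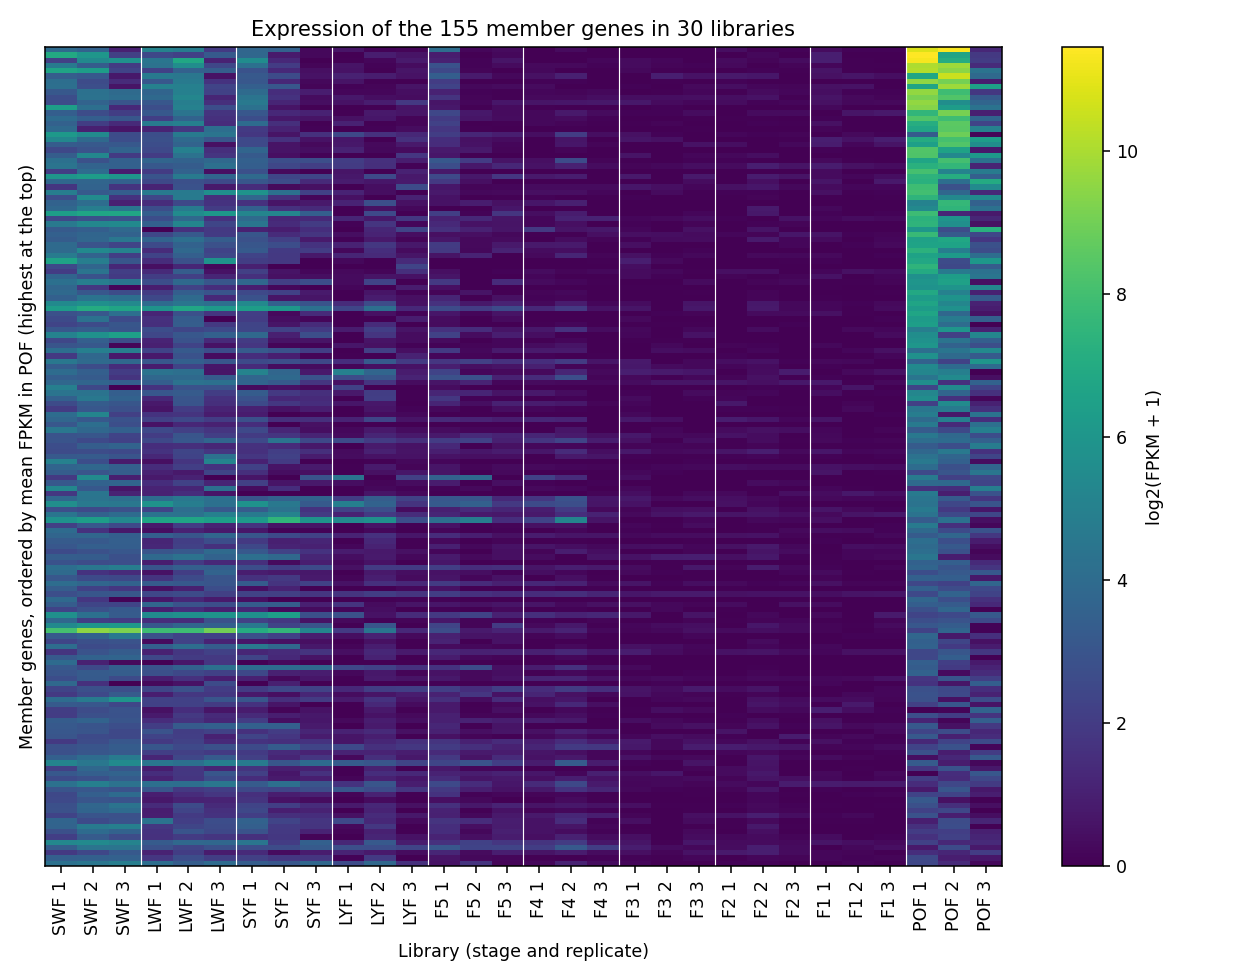
Heat map of log2(FPKM + 1) for the 155 member genes (rows, ordered by mean FPKM in POF, highest at the top) in the 30 libraries (columns, by stage and replicate). The columns of F3, F2 and F1 stay dark for every row by the rule, POF replicates 1 and 2 are bright over the upper rows, and POF replicate 3 is darker than both for most rows.

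Of the 155 members, 91 were under 0.5 FPKM in every library of F3, F2 and F1, and 4 were at 0 in all 9. The values therefore show low FPKM in these follicles, and an absence of the transcripts only in the sense of 0 listed FPKM for those 4. At the limits of the rule, the members nearest to the SWF minimum had a mean of 5.03 and 5.06 FPKM, and the next genes outside it had 4.99 and 4.93. The members nearest to the ceiling reached 0.977 and 0.966 FPKM in their highest library of F3, F2 and F1, and the genes just outside reached 1.02 and 1.02. The lowest POF means inside were 2.08 and 2.08 FPKM, and the next outside were 1.995 and 1.87. No gap in the values separated members from non-members at any of the 3 limits.

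The genes that were expressed in SWF and low in F3, F2 and F1 numbered 289, whatever their value in POF. The 155 members were 53.6% of them. Among the other 134, 98 were under 1 FPKM in every POF library, and 20 had a POF mean from 1 to under 2. These 134 early genes are the comparison used below.

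Within POF the members differed strongly between libraries. At 2 FPKM or more were 145 members in replicate 1, 129 in replicate 2 and 88 in replicate 3. All 3 libraries were at 2 FPKM or more for 71 members, 2 libraries for 65 and 1 library for 19. Of the 65, 53 reached it in replicates 1 and 2, and of the 19, 11 reached it in replicate 1, 3 in replicate 2 and 5 in replicate 3. The postovulatory value was thus carried by every library for 45.8% of the members. The part of these ZP3 and library differences in the members' levels was not tested.

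The highest POF library was replicate 1 for 90 members, replicate 2 for 48 and replicate 3 for 17. The lowest was replicate 3 for 110 members, replicate 2 for 33 and replicate 1 for 12. In 82 members a single library held more than 2/3 of the summed POF FPKM, and that library was replicate 1 in 51, replicate 2 in 22 and replicate 3 in 9. Among the 148 members with no POF library at 0, the ratio of the highest to the lowest POF library had a median of 15.1 and ran from 1.37 to 3739. The same ratio in SWF had a median of 2.21 over the 153 members with no SWF library at 0. None of these counts and ratios was taken over all genes. A rule on the POF mean also lets in genes with 1 high POF library. The counts and ratios therefore describe the members only and are not read as a trait of theirs. The median coefficient of variation was 95.7% in POF. It was 41.1% in SWF, 53.2% in LWF and between 80.6% and 101% in the stages from SYF to F1. The median of the members' stage means was 9.01 FPKM in SWF and 5.12 in LWF. It was lower from SYF to F1 and highest, at 11.9 FPKM, in POF. The part of level in the spread was not tested. This coefficient was not taken over all genes either, so it describes the members only.

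Over the 155 members, the Spearman rho was 0.643 between POF replicates 1 and 2, 0.282 between replicates 1 and 3 and 0.160 between replicates 2 and 3. Genes of 1 library share its depth and composition, so these values describe the libraries. The order of the members by level was shared mainly by replicates 1 and 2. Among earlier libraries, LWF replicate 2 had the order most like theirs, with a rho of 0.525 to POF replicate 1 and 0.503 to POF replicate 2. It was also the earlier library most like them over all genes that passed the filter (0.731 and 0.808). The likeness was thus not particular to the members. Over the members, LWF replicate 1 had 0.240 and 0.308, and LWF replicate 3 had -0.099 and -0.027. SWF libraries ranged from -0.151 to 0.225 against POF replicate 1.

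**Figure D2:**
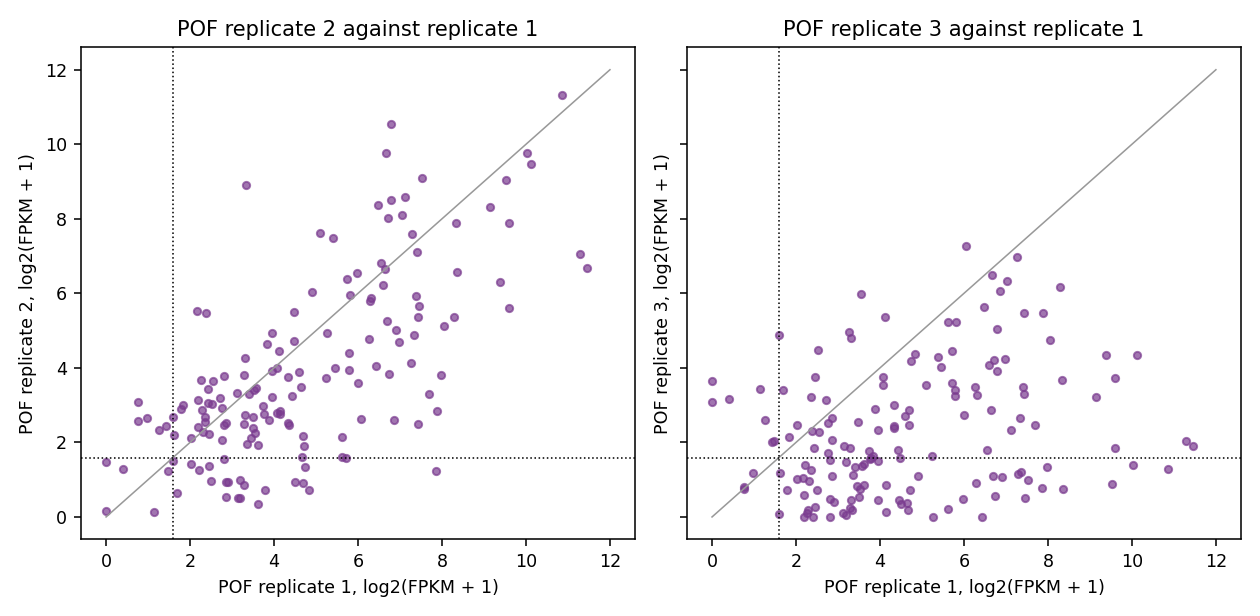
Member genes in POF replicate 2 (left) and replicate 3 (right) against POF replicate 1, as log2(FPKM + 1), with the line of equal values and dotted lines at 2 FPKM. Points lie below the line for most genes in the right panel, where replicate 3 was the lowest POF library for 110 of 155 genes.

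Every POF library was above every library of F3, F2 and F1 for 128 members (82.6%). This held for 21.4% of the 15197 genes that passed the filter, and for the members the rule itself favours it, so nothing is read from the excess. By library, POF replicate 1 was above all 9 for 151 members, replicate 2 for 150 and replicate 3 for 133. No share over all genes was counted for single libraries here, so nothing is read from these 3 counts either.

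The POF level was also set beside the SWF level, both used by the rule and given without a test. The POF mean was above the SWF mean in 87 members, and the ratio of the means had a median of 1.22 and quartiles of 0.559 and 4.76. Every POF library was above every SWF library in 14 members, and every POF library was below every SWF library in 21. These are 9.03% and 13.5% of the members, beside 13.7% and 27.9% of all genes that passed the filter, and since the rule used both stages nothing is read from them. For the other 120 members the libraries of the stages overlapped. Taken singly, POF replicate 1 was above all SWF libraries in 86 members, replicate 2 in 59 and replicate 3 in 23. The share over all genes was not counted for single POF libraries, and the rule used the POF mean. These counts therefore describe the members only, and nothing further is read from them.

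**Figure D3:**
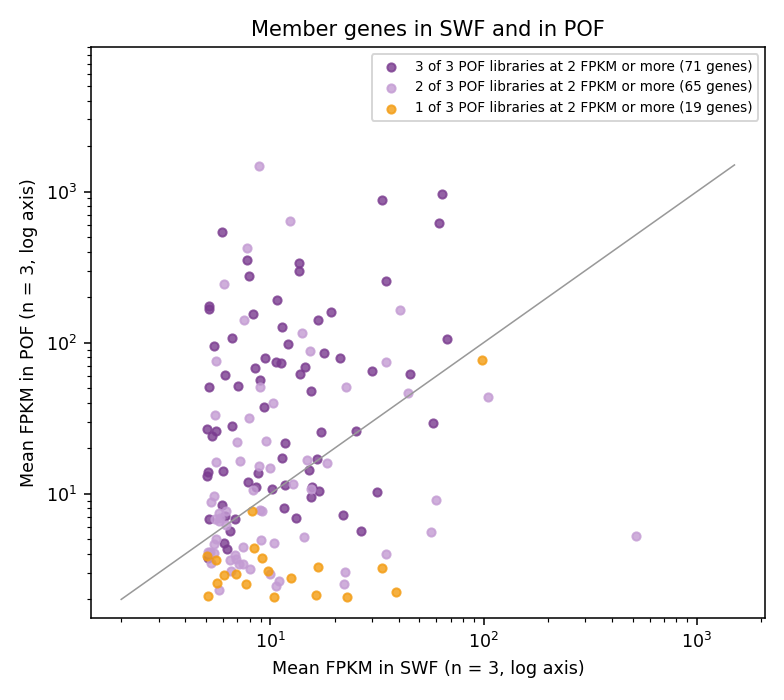
Mean FPKM in POF against mean FPKM in SWF for the 155 member genes on log axes (3 libraries per stage), coloured by how many POF libraries reached 2 FPKM, with the line of equal means. The means in POF spread from 2.08 to 1471 FPKM and those in SWF from 5.03 to 520.0, and 87 genes lie above the line.

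Some members had a high POF mean, mostly without POF replicate 3. By the POF mean, 6 of them (3.87%) were among the 100 highest of all 23910 genes, against 1 (0.645%) by the SWF mean. The rule used both means, so nothing is read from these counts. In POF replicate 3 the highest member was at 152 FPKM, against 2788 and 2560 FPKM in replicates 1 and 2. A POF mean of at least 100 FPKM was reached by 25 members. Replicate 3 was the lowest POF library in 24 of these 25 and in 86 of the other 130 members, a description only, since the split is by the POF mean itself. In the 25 it had values from 0.129 to 88.6 FPKM and a median of 10.1, and in 11 of them it was under 5.

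The member with the highest POF mean was ENSGALG00000041555, which had 1851, 2560 and 1.44 FPKM in POF replicates 1, 2 and 3. Its mean was 1471 ± 1321 FPKM (SD, n = 3), rank 26 of all genes in that stage. In SWF it had 14.6, 10.97 and 1.05 FPKM, and in LYF 0.568, 0.0885 and 0.122. The gene was thus high in both POF libraries with the lower ZP3 and within the range of its SWF values in the other. Its POF mean was 166 times its SWF mean, the highest ratio of all members. Its LWF values of 33.4, 27.5 and 2.90 FPKM and SYF values of 12.7, 10.8 and 0.182 show the same split, with replicate 3 low each time. The labels do not say whether replicate numbers join samples of different stages. In F5 it had 16.0, 0.167 and 0.281 FPKM, and it did not pass 0.342 FPKM in F3, F2 or F1. F5 replicate 1 was thus the only library after the prehierarchical stages and before POF in which this gene was above 1 FPKM.

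The member with the next highest POF mean was ENSGALG00000011740, with 2788, 102 and 2.73 FPKM in POF replicates 1, 2 and 3. Replicate 1 held 96.4% of this sum. In SWF it had 125, 64.4 and 3.43 FPKM, in LWF 4.65, 3.62 and 8.49, and in SYF 13.0, 0.797 and 0.176. It was at 0 in all F4 libraries and reached at most 0.960 FPKM in F3, F2 and F1. This gene varied widely between libraries of SWF as well as of POF, and its POF mean of 964 ± 1580 FPKM (SD, n = 3) rests on replicate 1. The member ranked the third by POF mean had the same form in POF, with 2506, 133 and 3.14 FPKM.

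The members ranked next by POF mean were not all led by replicate 1. The fourth had 1045, 871 and 1.64 FPKM in POF replicates 1, 2 and 3 and 25.02, 9.20 and 2.95 in SWF. The fifth had 1116, 710.1 and 19.4 FPKM in POF and 101, 81.3 and 3.86 in SWF. The sixth had 109, 1490 and 14.1 FPKM in POF and 9.30, 7.76 and 0.677 in SWF. Replicate 3 was thus the lowest library of both stages in these 3 genes, and replicates 1 and 2 of POF exceeded every SWF library. POF replicate 3 was below every SWF library in the fourth gene, among them in the fifth and above them in the sixth. The ratio of the highest to the lowest POF library was largest, 3739, in a member with 9.15, 483 and 0.129 FPKM in POF and 73.3, 43.2 and 5.32 in SWF. Only replicate 2 of POF was above the SWF values there.

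Other members were measured in every POF library. The member with the highest value in its lowest POF library had 101, 872 and 88.6 FPKM in replicates 1, 2 and 3, beside 17.0, 5.76 and 0.505 in SWF. The next by this measure had 130, 272 and 79.9 FPKM in POF and 38.2, 14.1 and 5.42 in SWF. The one after it had 87.5, 327 and 48.6 FPKM in POF and 9.12, 8.07 and 7.81 in SWF. All POF libraries lay above all SWF libraries for these 3 genes, and each stayed under 1 FPKM in F3, F2 and F1 by the rule.

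The 17 members with their highest value in POF replicate 3 were a separate case. Their median was 3.06, 3.64 and 11.6 FPKM in POF replicates 1, 2 and 3, and 9.38, 9.72 and 9.34 FPKM in SWF. The 90 members led by replicate 1 had medians of 25.5, 8.37 and 2.42 FPKM in POF, and the 48 led by replicate 2 had 8.82, 24.5 and 1.62. The clearest case led by replicate 3 had 65.7, 5.23 and 152 FPKM in POF. A further member was listed at 0, 0.117 and 11.6 FPKM there, so its membership came from replicate 3 alone.

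ENSGALG00000036346 had the highest SWF mean, with 268, 716 and 576 FPKM in SWF replicates 1, 2 and 3. It had 236, 237 and 522 FPKM in LWF, 137, 192 and 35.7 in SYF and 2.80, 20.9 and 1.497 in LYF. In F5 it had 5.29, 0.789 and 1.17 FPKM, in F4 0.772, 1.18 and 0.178, and it did not exceed 0.442 in F3, F2 and F1. The stage mean fell at each step from SWF to F4 under the names used here. Under the titles, which exchange LWF and SYF, it would run from 520.0 to 121, 332 and 8.38 FPKM in LYF. In POF it had 3.81, 11.9 and 0.0802 FPKM, a mean of 5.25 ± 6.02 (SD, n = 3) against 520.0 ± 229 in SWF. Its POF mean was 0.0101 times its SWF mean, the lowest ratio of all members, and all POF libraries were far below all SWF libraries. POF replicate 3 lay within the values of F3, F2 and F1 for this gene.

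ENSGALG00000046550 had the next highest SWF mean, with 79.6, 132 and 102 FPKM. It had 57.2, 110 and 69.6 FPKM in LWF, 80.5, 65.3 and 18.5 in SYF and 4.30, 16.9 and 1.47 in LYF. It had 5.07, 3.14 and 4.9996 FPKM in F5 and 1.45, 2.76 and 0.468 in F4. In POF it had 76.5, 54.4 and 0.887 FPKM. POF replicates 1 and 2 were thus below every SWF library and above every F4 library, and replicate 3 was within the range of F4. The member ranked the third by SWF mean had 81.2, 105 and 108 FPKM in SWF and 230, 1.37 and 0.720 in POF, so that replicate 2 joined replicate 3 at a low value there.

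The SWF libraries also differed for some members. All 3 were at 5 FPKM or more for 80 members, 2 for 51 and 1 for 24. In 25 members a single library held more than 2/3 of the SWF sum, namely replicate 1 in 17 and replicate 2 in 8. Replicate 3 was the lowest SWF library in 19 of the 25 members with a POF mean of at least 100 FPKM and in 58 of the other 130. Over the members, the Spearman rho was 0.349 between SWF replicates 1 and 2, 0.176 between replicates 1 and 3 and 0.530 between replicates 2 and 3. The rule set a lower limit on the SWF mean and no upper limit. The SWF means had quartiles of 6.18 and 15.5 FPKM and reached 520.0 FPKM. The part of this range of levels in the correlations was not tested. The part of cell composition in these differences was not tested.

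The stages LWF, SYF, LYF, F5 and F4 took no part in the rule but lie between stages that did. They show when the members fell. The median FPKM of the members was 3.67, 6.31 and 3.44 in LWF and 4.71, 1.93 and 0.974 in SYF. It was 0.274, 0.870 and 0.425 in LYF, 1.13, 0.214 and 0.392 in F5, and 0.232, 0.332 and 0.0801 in F4. Every LWF library and 2 of the 3 SYF libraries lay above every library of LYF, F5 and F4 by this median. SYF replicate 3 was below F5 replicate 1.

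**Figure D4:**
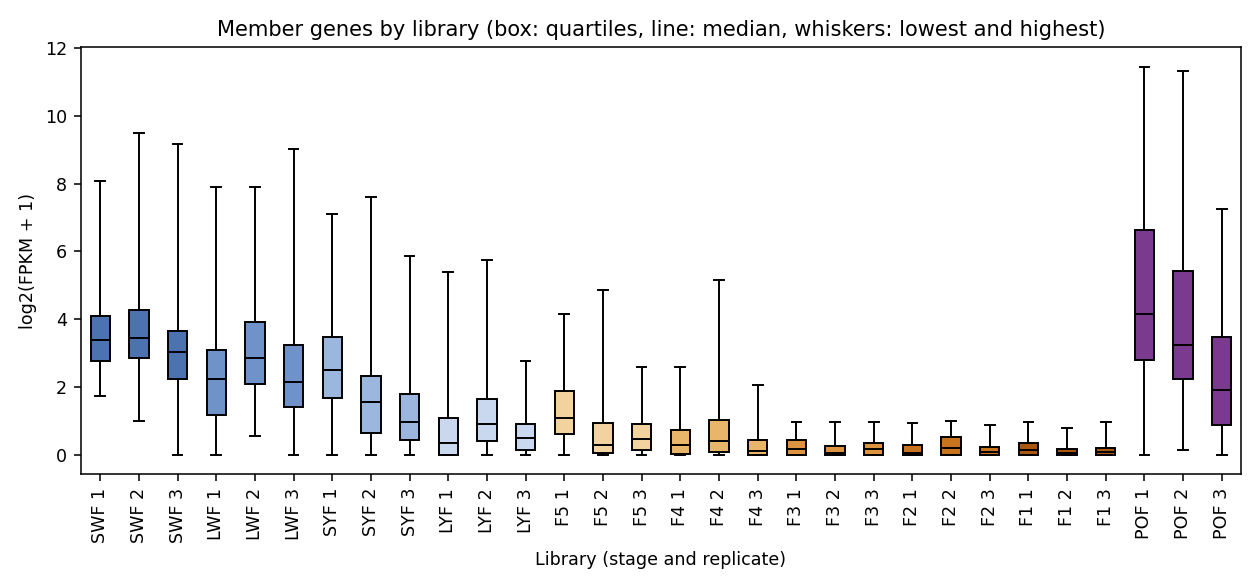
Box plot of log2(FPKM + 1) of the 155 member genes in each of the 30 libraries (box, quartiles; line, median; whiskers, lowest and highest gene). The medians step down between SYF and LYF, F5 replicate 1 lies above its stage, and the box of POF replicate 3 lies below those of the other POF libraries.

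Members at 1 FPKM or more numbered 126, 152 and 136 in LWF replicates 1, 2 and 3, and 140, 100 and 77 in SYF. They numbered 43, 72 and 36 in LYF, 84, 36 and 32 in F5 and 21, 42 and 8 in F4. F5 replicate 1 thus held more members than every LYF library. It was the highest F5 library for 122 of the 155 members (78.7%), for 86 of the other 134 early genes (64.2%) and for 44.0% of all genes tested. Of those other early genes, 58 were at 1 FPKM or more in F5 replicate 1 and 23 and 25 in the other F5 libraries, so the pattern was shared by both sets. Of the 25 members with a POF mean of at least 100 FPKM, 19 were at 1 FPKM or more in F5 replicate 1 and 2 in each of the other F5 libraries. Of the other 130 members, 65 were at 1 FPKM or more in F5 replicate 1 and 34 and 30 in replicates 2 and 3. The split is by the POF mean, which the rule used, so these counts are a description only. Genes of any kind at 1 FPKM or more numbered 11188 in F5 replicate 1 and 10859 and 10594 in the other F5 libraries, and the relative depth of replicate 1 was the lowest of all libraries. The part of follicle size or cell composition in this library was not tested.

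The last stage with a mean of 1 FPKM or more before F3 was SWF for 8 members and LWF with SYF for 70. It was LYF for 11, F5 for 39 and F4 for 27. Among the other 134 early genes it was SWF for 16, LWF with SYF for 74, LYF for 7, F5 for 22 and F4 for 15. The F5 counts use the stage mean, and F5 replicate 1 was the highest F5 library for 122 members and 86 of the others. The most frequent last stage was LWF with SYF in both groups, and the difference between the groups was not tested. In all, 42 members were under 1 FPKM in every library of LYF, F5 and F4, and 5 were at 1 FPKM or more in every library of F5 and F4. One of these 5 held 5.57, 5.40 and 8.36 FPKM in SYF, 7.58, 3.93 and 4.07 in F5 and 3.29, 8.26 and 3.19 in F4, and at most 0.953 in F3, F2 and F1. Its fall lay between F4 and F3, later than for most members.

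The member with the highest mean over F5 and F4 fell in steps from SYF onward, with wide scatter. It had 56.3, 82.9 and 39.9 FPKM in SWF, 103, 106 and 84.2 in LWF and 69.6, 180.4 and 57.1 in SYF. It had 40.8, 53.2 and 5.76 FPKM in LYF, 16.9, 27.8 and 1.83 in F5 and 3.88, 34.9 and 0.515 in F4. In F3, F2 and F1 it reached at most 0.4005 FPKM, and in POF it had 8.91, 18.2 and 0.378. Replicate 3 was the lowest library of this gene in every stage from SWF to F4, and POF replicate 3 was within the range of F3, F2 and F1. Before selection it was higher by 2.82 ± 0.72 (log2, SE, limma adjusted p of 0.0237).

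The first comparison asked whether the members were higher before selection than in the first follicles of the hierarchy. The mean of LWF, SYF and LYF was set against the mean of F5 and F4 with limma on log2(FPKM + 1) over all 15197 genes, of which 155 of the 155 members are part. A call needed more than a 1.5-fold difference in FPKM + 1 and an adjusted p (Benjamini-Hochberg) below 0.05. Of the members, 69 (44.5%) were called higher before selection and 0 lower. The background was 6.52% of all genes called higher, with 991 higher and 588 lower. The median log2 difference was 1.09 in the members and 0.096 over all genes, and 154 of 155 members were positive. Among the other 134 early genes, 67 (50%) were called higher and 0 lower, with a median of 0.80. The share was thus well above the background in both sets of early genes. Members were not set apart from the others by a test. Both sets were chosen as high in SWF and low in F3, F2 and F1. That choice favours a fall in the stages between, so nothing is read from the excess. LYF was pooled with LWF and SYF in this contrast. The median of the members' stage means was 5.12 FPKM in LWF, 2.84 in SYF, 0.581 in LYF and 0.786 in F5. LYF was thus already near the F5 level, and the calls do not place the fall at selection.

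ENSGALG00000036346 differed by 4.69 ± 0.51 (log2, SE) with a limma adjusted p of 0.00114, the largest difference among the members, and ENSGALG00000046550 by 2.99 ± 0.43 with 0.00245. ENSGALG00000041555 did not pass, with 1.43 ± 0.72 and a limma adjusted p of 0.200, and nor did ENSGALG00000011740, with 1.41 ± 0.44 and 0.0511. The last of these passed with a pseudocount of 0.1 (3.08) and without SYF replicate 1, 2 or 3 (1.05, 1.54 and 1.64), so its place below the threshold is marginal. The only member with a negative value had -0.51 ± 0.77. It was listed at 0.720, 1.16 and 0 FPKM in LWF, 0.583, 0 and 6.32 in SYF, 20.3, 0 and 3.47 in LYF, 10.9, 14.03 and 0 in F5 and 3.57, 1.64 and 0 in F4. Its libraries scattered within every one of these stages.

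No member had every LWF, SYF and LYF library above every F5 and F4 library, which held for 0.204% of all genes tested. The call was sensitive to single libraries. Without F5 replicate 3 it held for 40 members (3.57% of all genes), without F4 replicate 1 for 42 (3.91%) and without F4 replicate 3 for 41 (4.29%), so the background fell as well.

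**Figure D5:**
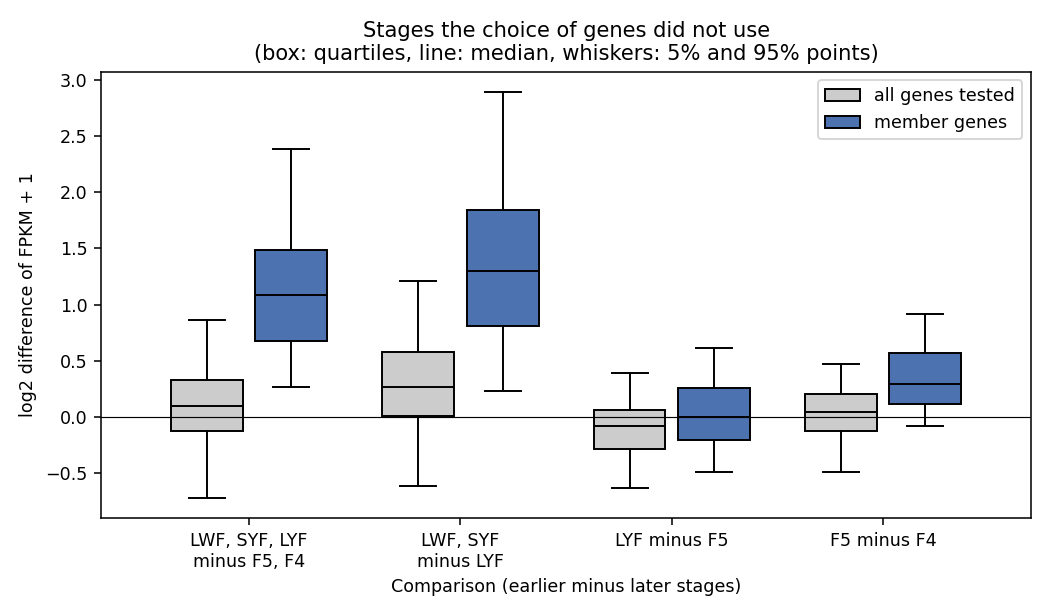
Log2 differences of FPKM + 1 in the 4 comparisons of stages that the rule did not use, for all 15197 genes tested (grey) and the 155 member genes (blue); box, quartiles; line, median; whiskers, 5% and 95% points. The member medians are 1.09 and 1.297 in the comparisons with LWF and SYF, against 0.096 and 0.26 over all genes, and 0.00 and 0.29 in the steps from LYF to F5 and from F5 to F4.

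The second comparison asked how many members were lower in large yellow than in white and small yellow follicles. The mean of LWF and SYF was set against LYF in the same limma fit. Of the members, 73 (47.1%) were called higher in LWF and SYF and 0 lower. The background was 12.2% of all genes called higher, with 1848 higher and 325 lower. The median log2 difference was 1.297 in the members and 0.26 over all genes. Among the other early genes, 68 of 134 (50.7%) were called higher, with a median of 1.06. The choice of early genes favours this fall too, so the excess over the background is not read as a result. Each LWF and SYF library was above each LYF library for 33 members (21.3%), against 14.8% of all genes tested, and 64 members were at 1 FPKM or more in all 6 LWF and SYF libraries.

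ENSGALG00000036346 was higher by 4.89 ± 0.69 (log2, SE, limma adjusted p of 0.00471) and ENSGALG00000046550 by 3.29 ± 0.58 (0.00714). ENSGALG00000041555 differed by 2.93 ± 0.97 with a limma adjusted p of 0.0566, which passed with a replicate block and without LWF replicate 3, SYF replicate 3 or F5 replicate 1, and ENSGALG00000011740 by 1.62 ± 0.59 with 0.0764, which passed without SYF replicate 1 or 3. All LWF and SYF libraries were above all LYF libraries for the first of these 4 genes and for ENSGALG00000046550, and the libraries overlapped for the others.

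The scale of the libraries mattered in this comparison. After upper quartile scaling the median of all genes moved from 0.26 to 0.082, the calls over all genes were 859 higher and 718 lower, and the members gave 52 calls beside a background of 5.65% and a median of 1.08. After quantile normalization 35 members were called beside 4.44% of all genes, and with only LWF, SYF and LYF in the fit 20 beside 4.61%. Without LWF replicate 2 the count was 37 (7.66% of all genes), without SYF replicate 1 it was 45 (7.51%), and it was 21 both without LYF replicate 1 (4.11%) and without LYF replicate 3 (4.95%). The background fell with the member count in each of these settings.

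The steps from LYF to F5 and from F5 to F4 gave no calls. From LYF to F5, limma called 0 of 15197 genes (0.0%), while p before adjustment was below 0.05 for 2 members and for 570 genes. The members' median log2 difference was 0.00, with 76 of 155 positive. From F5 to F4, limma called 0 genes (0.0%), while 2 members and 334 genes were below 0.05 before adjustment. Here the members' median was 0.29 and that of all genes 0.040, and 133 members were higher in F5. Among the other 134 early genes the median was 0.30, and 115 were higher in F5. The share of all genes higher in F5 was not counted. Leaving out 1 library moved the members' median between 0.11 and 0.37. The choice of genes low in F3, F2 and F1 favours this fall too, so nothing is read from it. ENSGALG00000041555 had -1.24 ± 1.12 from LYF to F5 (limma adjusted p of 0.999) and 1.43 ± 1.12 from F5 to F4 (limma adjusted p of 1), and without F5 replicate 1 these became 0.022 and 0.16. With 3 libraries per stage and this spread, no change was detected in these steps, which does not show that the levels were equal.

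The early genes that did not become members were described in each POF library as well. Their median was 0.0697, 0.115 and 0.0714 FPKM in POF replicates 1, 2 and 3, and 22, 21 and 9 of the 134 were at 1 FPKM or more. By choice they are low in POF. In LWF their median was 1.27, 4.46 and 2.14 FPKM and in F4 0.0832, 0.155 and 0. Each of these LWF medians was below that of the members in the same library. This order did not hold throughout. The other early genes had the higher median in SWF replicate 3 (9.69 against 7.25 FPKM) and SYF replicate 3 (1.27 against 0.974). The same held in LYF replicate 2 (0.918 against 0.870) and F5 replicate 3 (0.413 against 0.392). In the remaining libraries from SWF to F4 they had the lower median, as in SWF replicate 1 (5.84 against 9.43).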

How the data were processed

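The authors extracted total RNA from granulosa layers, made strand-specific rRNA-depleted libraries, mapped the cleaned reads to GRCg6a with HISAT2 2.1.0 and quantified genes with StringTie 1.3.3. They deposited FPKM for 23910 genes in 30 libraries. Read counts were not analysed here, so the study's count test was not used. The rule was applied to the deposited FPKM with no scaling. The members and lists were chosen with earlier results of these data known.

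The 5 stages outside the rule (15 libraries) were fitted together with limma 3.58.1 in R 4.3.3 on log2(FPKM + 1), a pseudocount of 1, with a trend, over the 15197 genes above 0.5 FPKM in 2 or more of a stage's libraries. All 155 members passed this filter. The fold is that of FPKM + 1 and is smaller than the fold of FPKM for low genes. Before use, the fit was run on simulated data with independent normal noise. Changes were planted there only in genes with a mean log2(FPKM + 1) above 2. Members below that level were not covered, and nothing is read from the simulation. Figures were drawn with matplotlib 3.10.9.

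Genes were to be named by symbol (highest in SWF, in POF and before selection, largest differences, members of marker and pathway lists). The reference table paired 0 identifiers with symbols, so none of the 232 listed symbols was matched outside the study's own table, and sequences were not used here. Of the 4 identifiers printed, 2 lead POF and 2 lead SWF. All 4, and the members described by rank, were chosen after their values were seen. Alternatives covered scaling, filter, pseudocount, trend, samples in the fit, limits of the rule, replicate block and leaving out each library.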

Additional observations from a re-analysis of the deposited data

How the results depend on the processing

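The number of members depended on the limits and on the scale. The 155 became 96 after upper quartile scaling, 59 after quantile normalization, 91 with a ceiling of 0.5 FPKM in F3, F2 and F1, 269 with a ceiling of 2 FPKM, 63 with the ceiling also in F5 and F4, 69 with an SWF mean of at least 10 and 71 with 2 FPKM in every POF library. The choices that followed a look at the data gave 91 with POF replicate 3 alone and 169 without the libraries of the higher Q30 group. Leaving out an SWF or POF library gave 141 to 173. At 5 FPKM, 40 in place of 71 members reached the limit in all 3 POF libraries. With no filter on low values the calls were 40 in place of 69 before selection and 29 in place of 73 from LWF and SYF to LYF, where quantile normalization gave 35 and a fit of only those stages 20. Stricter limits leave fewer genes by construction, and the cause of the other changes was not tested. Leaving out 1 library gave 40 to 90 and 21 to 88 calls, and 0 in both later steps. Over all genes the calls before selection were 797 higher and 787 lower after upper quartile scaling and 789 and 873 after quantile normalization, beside 63 and 61 members. From LWF and SYF to LYF, quantile normalization gave 675 and 697, with a median of all genes of 0.018.

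In the step from LYF to F5, which had no call, the sign changed without 1 library for 3 genes. The range was -0.067 to 0.40 for ENSGALG00000011740, -0.56 to 0.87 for ENSGALG00000046550 and -1.91 to 0.022 for ENSGALG00000041555 (log2). With a pseudocount of 0.1 the members' medians were 2.06 before selection and 2.32 from LWF and SYF to LYF, a larger scale by construction.

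Replicate numbers are shared by the stages, but nothing says that they pair samples. The deviations of same-numbered libraries from their stage means correlated at a mean of 0.092 (from -0.32 to 0.40 over 30 pairs), those of other numbers at -0.046. Deviations within a stage sum to 0, which ties the second mean to the first, so it is no separate evidence. The same correlations of deviations were also averaged for each library by the replicate number of the other stages' libraries. No level for unpaired numbers was set beside the count that follows. For 12 of the 15 libraries the highest of these averages was that of their own number. With a replicate block the calls were 72 and 79, and 0 in both later steps. It called ENSGALG00000041555 from LWF and SYF to LYF, at 2.93. FPKM carry no counts, so counting error at low values is unknown.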
